A study of Homo sapiens with 38 samples.

Results

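Messenger RNA levels were followed for 10 genes grouped as subunits of the energy sensor AMPK and brakes on the growth kinase complex mTORC1. They were the AMPK catalytic subunits PRKAA1 and PRKAA2, its scaffold subunits PRKAB1 and PRKAB2, and DDIT4, SESN1, SESN2, SESN3 and DEPTOR. The transcriptional regulator TSC22D3 was grouped with them. The genes were chosen by name, and every probe set annotated to 1 of them was examined, 31 in all. Of the 10 genes, 9 passed the filter on dim probe sets, among 11456 genes of the series that did. Each treated array was compared with the control array named in its own sample description, and the biguanides were set against rotenone and antimycin A.

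The 38 arrays came from 2 human tumour lines, HT-1080 (fibrosarcoma, 29 arrays) and HT-29 (colorectal adenocarcinoma, 9 arrays), and from their rho0 derivatives, which lack mitochondrial DNA (mtDNA). The stresses were 2-deoxyglucose (2DG), a glucose analogue that blocks glycolysis, glucose starvation (GS), and tunicamycin (TM), which blocks N-glycosylation in the endoplasmic reticulum. HT-1080 cells received 2DG alone (3 arrays), GS alone (2 arrays) or TM alone (1 array). With 2DG, 1 array each had metformin (Met, 10 mM), buformin (Bu, 300 µM), phenformin (Phen, 100 µM), rotenone (Rot, 100 nM), antimycin A (AA, 10 ng/ml) or versipelostatin (VST, 3 µM). With GS, 1 array each had Rot, Rot including floating cells (Rot_S), AA including floating cells (AA_S) or VST, at the same doses. Rot and AA were also each given with TM on 1 array. HT-29 cells received GS alone (3 arrays) or GS with VST (1 array), HT-1080 rho0 cells 2DG, GS including floating cells or TM (1 array each), and HT-29 rho0 cells GS (1 array). Controls were 6 HT-1080, 2 HT-1080 rho0, 3 HT-29 and 1 HT-29 rho0 array. Exposure lasted 18 h, except 14 h for the third HT-29 GS array and for the HT-29 rho0 GS array. Compounds were only given together with a stress, and a compound's change is therefore one on top of 2DG, GS or TM.

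AMPK is a kinase of 1 catalytic, 1 scaffold and 1 nucleotide-binding subunit that is switched on when ATP runs low, and it restrains mTORC1 by phosphorylating the TSC complex and raptor. DDIT4 (also called REDD1) acts on mTORC1 through the TSC complex. The sestrins act through the GATOR complexes, which report amino acids to the Rag GTPases, and SESN2 binds leucine. DEPTOR binds mTOR directly. TSC22D3 (GILZ) is a transcriptional regulator induced by glucocorticoids and FOXO factors. DDIT4 and SESN2 are known targets of the stress factor ATF4, and SESN1 of p53. Rotenone blocks complex I and antimycin A complex III of the respiratory chain, and biguanides inhibit complex I more weakly.

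The signals are Affymetrix MAS5 intensities rescaled to a common trimmed mean of 114, and changes are log2 differences after adding an offset of 5.69, which understates changes of dim genes. Since each array holds RNA from a whole culture, fewer cells of a kind and less RNA per cell cannot be told apart. The lines matched their labels: 6 of 8 colon epithelial markers were higher in HT-29 than in HT-1080. Summed over the 8, signals were 8674 to 16963 against 24.8 to 85.7. CDX1 and CDX2 were dim in both, and so was CDH17 among the 6 (means of 15.9 in HT-29 and 4.36 in HT-1080). KRT20 overlapped between the lines, with a lowest of 12.6 in HT-29 and a highest of 19.6 in HT-1080. Of 8 mesenchymal markers, 7 were higher in HT-1080, of which COL5A1 was dim in both lines. NT5E went the other way, with a mean of 422 in HT-29 and 5.99 in HT-1080. All 7 mtDNA-encoded transcripts with a probe set were lower in rho0 cells (summed signal 10.1 to 32.8, against 25320 to 64837 elsewhere). Among the 6 HT-1080 controls, control 6 stood apart for 3 of the genes. DDIT4 was 703 there against 86.3 to 223 on the other 5, SESN2 524 against 190 to 267, and TSC22D3 112 against 32.9 to 60.9. Control 6 is the own control of the second GS array, of TM alone, and of every Rot or AA array with GS or TM, so changes from it run lower for those genes.

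PRKAA2, the second catalytic subunit, was not measurable: none of its 5 probe sets passed the filter, which asks for 45.5 on at least 2 arrays, and the highest signal was 38.4. SESN3 passed through 1 of its 7 probe sets, with 50.7 on the third HT-29 control and 46.6 on the HT-29 rho0 control. DEPTOR passed on 4 arrays, all of HT-29 or HT-29 rho0. These 2 genes passed only through HT-29 arrays, so a difference between the lines was built into their selection, and in HT-1080 DEPTOR was at most 24.4. The other 7 genes passed on at least 32 of the 38 arrays.

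Promoters are shown for DDIT4, SESN2 and TSC22D3, the genes called lower with Rot or AA and 2DG relative to 2DG alone. They are given as in RefSeq on GRCh38.p14, from 250 bases before to 50 bases after the annotated start. Capitals mark matches, on either strand, to the CCAAT box (CCAAT, or ATTGG on the other strand), to the FOXO element GTAAACA (or TGTTTAC), and to the hypoxia response core ACGTG. The TSC22D3 window is 1 of 4 annotated for that gene and was picked after the search, as the one with a FOXO match.
DDIT4, chr10:72273674-72273973, plus strand: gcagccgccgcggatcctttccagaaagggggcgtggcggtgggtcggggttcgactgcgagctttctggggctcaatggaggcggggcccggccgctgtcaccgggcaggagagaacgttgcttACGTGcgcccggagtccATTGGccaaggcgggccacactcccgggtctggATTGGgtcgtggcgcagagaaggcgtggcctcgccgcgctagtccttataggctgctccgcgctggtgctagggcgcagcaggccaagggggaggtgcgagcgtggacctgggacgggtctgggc
SESN2, chr1:28259268-28259567, plus strand: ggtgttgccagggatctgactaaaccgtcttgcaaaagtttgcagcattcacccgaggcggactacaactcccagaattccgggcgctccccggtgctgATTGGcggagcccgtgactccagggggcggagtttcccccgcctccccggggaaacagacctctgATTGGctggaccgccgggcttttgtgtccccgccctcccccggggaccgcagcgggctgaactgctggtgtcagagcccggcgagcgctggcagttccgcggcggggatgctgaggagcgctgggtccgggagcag
TSC22D3, chrX:107717013-107717312, minus strand: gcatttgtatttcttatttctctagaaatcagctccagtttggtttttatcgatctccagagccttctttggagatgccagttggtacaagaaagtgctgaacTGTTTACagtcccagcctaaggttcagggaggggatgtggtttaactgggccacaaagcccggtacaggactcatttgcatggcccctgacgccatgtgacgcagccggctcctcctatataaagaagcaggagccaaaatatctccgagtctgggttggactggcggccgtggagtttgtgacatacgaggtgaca
The DDIT4 window holds 2 CCAAT boxes and 1 ACGTG core, the SESN2 window 2 CCAAT boxes, and this TSC22D3 window 1 FOXO element. Among 35116 RefSeq windows of that length, 34.6% held at least 1 CCAAT box, 10.8% held 2 or more, 21.4% held ACGTG and 3.42% held the FOXO element. The C/EBP-ATF element TGATGNAA, present in 3.62% of windows, was in none of the 14 windows of the 9 genes that had one. No matches overlapped.

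With 2DG alone, SESN2 and TSC22D3 rose in HT-1080 cells. SESN2 measured 604, 663 and 495 on the 3 arrays with 2DG, against 267, 241 and 190 on their own controls. TSC22D3 measured 193, 238 and 129 with 2DG, against 42.7, 56.0 and 49.1. In both genes all 3 treated arrays lay above all 3 controls. The changes were 1.32 ± 0.35 for SESN2 (SE, adjusted p = 0.0434 in limma) and 1.77 ± 0.33 for TSC22D3 (adjusted p = 0.0099, n = 3 pairs each). DDIT4 measured 552, 810 and 227 with 2DG, against 93.8, 223 and 86.3, higher in 3 of 3 pairs by 1.34 to 2.49, but its change of 1.89 ± 0.69 did not pass (adjusted p = 0.113 in limma, 0.0186 unadjusted). Of the 9 measured genes 2 were called, both higher, against 8.27% of all genes (4.9% higher and 3.37% lower). The median change of the 9 was 0.31, beside 0.02 over all genes. The SESN2 call was lost without any 1 of the 3 2DG arrays (1.26 to 1.39, adjusted p = 0.17 to 0.232), and that of TSC22D3 without the first or the second (1.64 and 1.67, adjusted p = 0.0992 and 0.106). Without the own control as a block TSC22D3 did not pass either (1.62, adjusted p = 0.0916), and DDIT4 passed when arrays of HT-1080 alone were fitted (adjusted p = 0.0459).

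**Figure D1:**
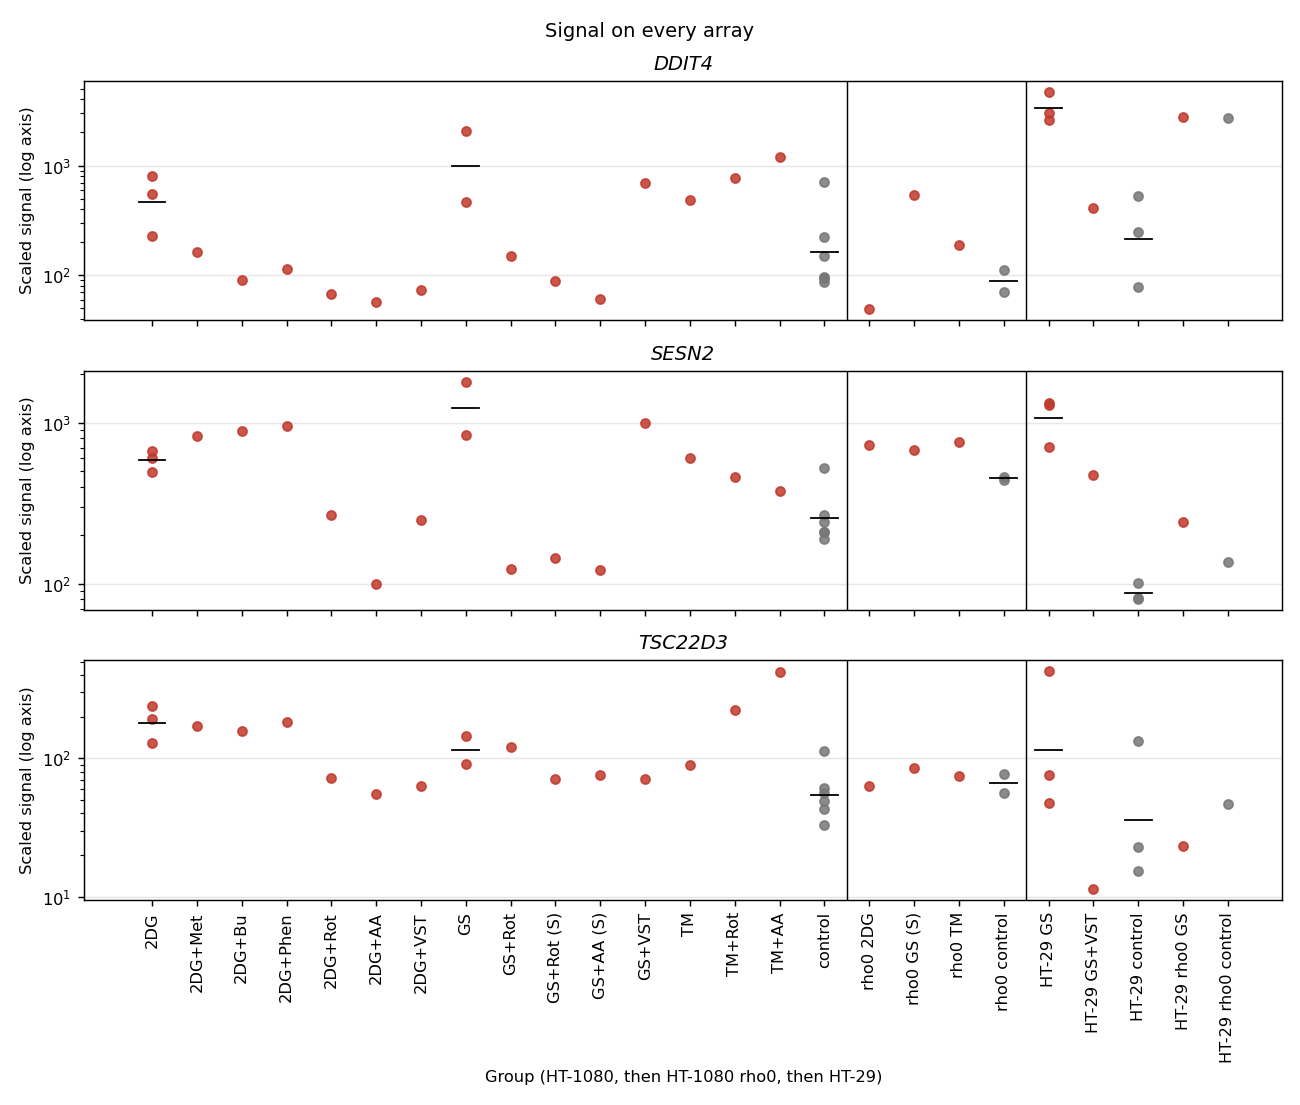
Scaled signal (log axis) of DDIT4, SESN2 and TSC22D3 on each of the 38 arrays; red points are treated arrays, grey points controls, and black bars the geometric mean of groups with over 1 array. DDIT4 lies at 57.5 and 67.8 with 2DG and AA or Rot but at 767 and 1198 with TM and Rot or AA, and the highest HT-1080 control is control 6 in all 3 panels.

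Glucose starvation of HT-1080 cells raised SESN2 and PRKAB2 and lowered SESN1. SESN2 measured 1803 and 834 with GS, against 210 and 524 on controls 1 and 6, a change of 1.87 ± 0.43 (adjusted p = 0.0237 in limma). PRKAB2 measured 249 and 326 with GS, against 68.4 and 123, a change of 1.57 ± 0.23 (adjusted p = 0.0036). All 3 of its probe sets rose, by 1.57, 1.58 and 1.71. SESN1 measured 99.6 and 130 with GS, against 188 and 209, a change of -0.77 ± 0.22 (adjusted p = 0.0466). For each of these genes the 2 treated arrays lay on 1 side of their controls. DDIT4 did not: it measured 2060 with GS against 95.9 on control 1, but 468 with GS against 703 on control 6, and 1.88 ± 0.84 did not pass (adjusted p = 0.187 in limma). Thus 3 of 9 genes were called, 2 higher and 1 lower, against 9.45% of all genes (4.36% higher and 5.1% lower), with a median of 0.67 beside -0.02. The calls rest on 2 arrays. SESN2 passed without the second GS array (3.07, adjusted p = 0.0123) but not without the first (0.67, adjusted p = 0.483). Without the first array DDIT4 came to -0.58 (adjusted p = 0.763) and PRKAB2 to 1.37 (adjusted p = 0.115), and without the second PRKAB2 came to 1.78 (adjusted p = 0.0548). SESN1 was lost without either (-0.66 and -0.88, adjusted p = 0.39 and 0.244), and DDIT4 passed without the second (4.35, adjusted p = 0.0363).

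In HT-29 cells, starvation raised DDIT4, SESN2, PRKAB1 and TSC22D3 and lowered SESN1. DEPTOR was also called higher, but it was selected partly through starved arrays. DDIT4 measured 2601, 4679 and 3032 with GS, against 77.6, 246 and 530 on their own controls, a change of 3.90 ± 0.69 (adjusted p = 0.00312 in limma). SESN2 measured 1318, 1294 and 706 with GS, against 80.2, 81.6 and 101, a change of 3.53 ± 0.35 (adjusted p = 0.000295). For both genes every starved array lay above every control, and the array of 14 h had the smallest change (2.50 for DDIT4 and 2.74 for SESN2, against 3.90 to 4.97 on the others). For DDIT4 the starved level at 14 h, 3032, was above the 2601 of the first array, and its control, at 530, was the highest. PRKAB1, the scaffold subunit that targets AMPK to membranes, measured 135, 218 and 208 with GS, against 86.4, 142 and 80.0 (0.84 ± 0.19, adjusted p = 0.00799). Its other probe set gave 0.76 ± 0.18. TSC22D3 measured 47.6, 426 and 75.1 with GS, against 15.3, 133 and 23.0, so that it rose by a like amount in each pair (1.34 to 1.64) while its level in pair 2 was far above that in pairs 1 and 3. Its fitted change was 1.49 ± 0.33 (adjusted p = 0.00835 in limma), but its second probe set, dim on most arrays, gave 0.04 ± 0.39. DEPTOR measured 50.2, 38.6 and 140 with GS, against 13.8, 13.4 and 44.1 (1.43 ± 0.39, adjusted p = 0.0195), and had passed the filter through arrays of this line. SESN1 was dim and measured 18.2, 33.9 and 35.2 with GS, against 39.4, 46.4 and 46.2 (-0.55 ± 0.18, adjusted p = 0.0389). Of 9 genes 6 were called, 5 higher and 1 lower, against 27.1% of all genes (11.6% higher and 15.5% lower), with a median of 0.84 beside -0.04. DEPTOR is counted among the 5 that were higher. Without the own control as a block, 3 of the 6 were called, and TSC22D3 (adjusted p = 0.131), DEPTOR (0.0939) and SESN1 (0.0757) were not.

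The responses were also set against each other. Between GS in HT-29 and GS in HT-1080, 0 of 9 differences passed in limma (3 at unadjusted p under 0.05), where 0.567% of all genes did. The nearest was PRKAB2, at 0.15 in HT-29 and 1.57 in HT-1080, a difference of -1.42 ± 0.29 (adjusted p = 0.067). That difference passed without the block (-1.34, adjusted p = 0.0416). Between 2DG and GS in HT-1080, 0 of 9 passed (1 at unadjusted p under 0.05), where 0.0175% of all genes did.

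**Figure D2:**
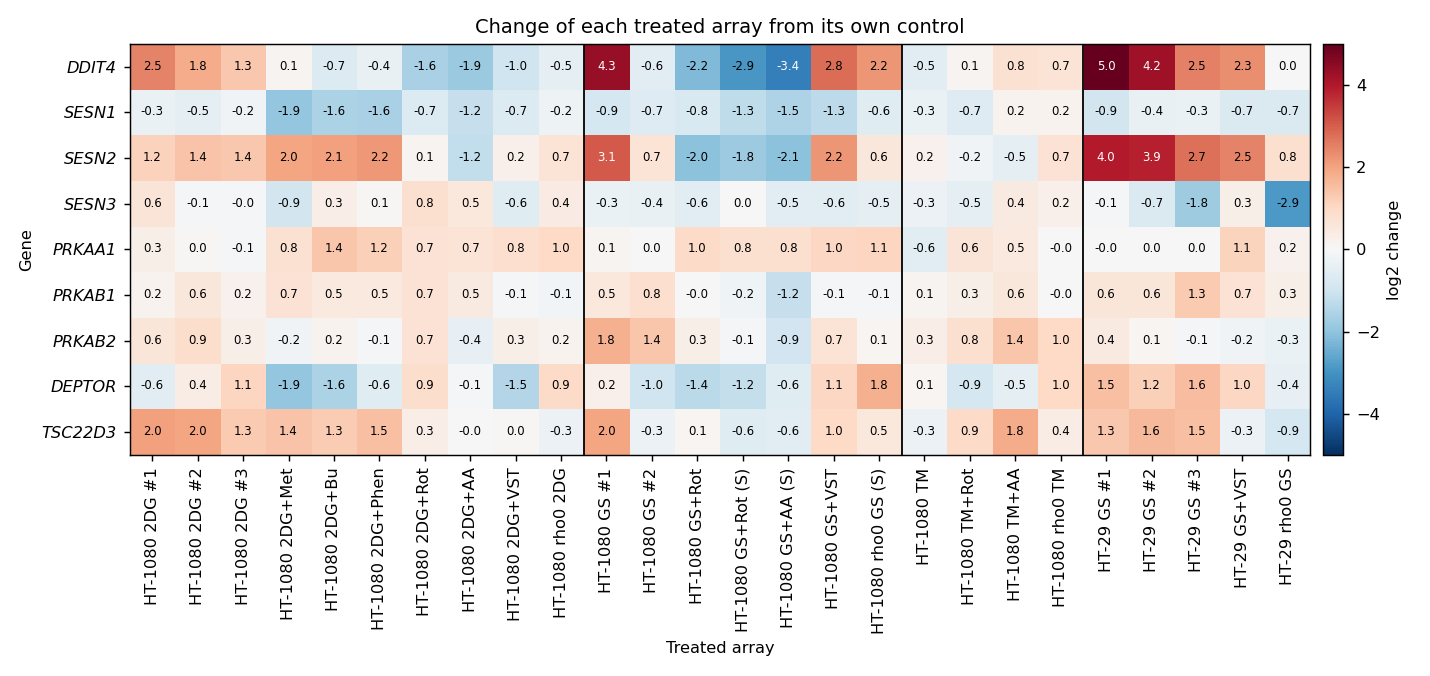
log2 change of 9 genes (rows) on each of the 26 treated arrays (columns) from its own control, with black lines between the 2DG, GS and TM arrays of HT-1080 and the HT-29 arrays. DDIT4 spans -3.41 to 4.97 and SESN2 -2.06 to 3.95, while PRKAA1 stays between -0.58 and 1.40.

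Biguanides and respiratory chain inhibitors were each added to 2DG in HT-1080 cells, and in the direct test between the classes, given further on, none of the 9 genes passed. SESN2 measured 830 with Met, 891 with Bu and 956 with Phen, against 208 on control 3, which these 3 arrays share. With Rot it measured 266 and with AA 99.8, against 241 on control 4. The 3 biguanide arrays lay above the 3 arrays with 2DG alone (495 to 663), and the Rot and AA arrays lay below them. On its second probe set, 223196_s_at, the biguanide arrays did not lie above 2DG alone: it measured 209, 198 and 202 with Met, Bu and Phen and 106 and 50.7 with Rot and AA, against 219, 280 and 233 with 2DG alone. TSC22D3 measured 172, 156 and 183 with Met, Bu and Phen, against 60.9 on control 3, and 71.7 and 55.2 with Rot and AA, against 56.0 on control 4. DDIT4 measured 164, 90.3 and 114 with Met, Bu and Phen, against 150 on control 3, and 67.8 and 57.5 with Rot and AA, against 223 on control 4. On all 5 arrays DDIT4 thus lay below its range with 2DG alone (227 to 810). SESN1 measured 59.4, 77.2 and 75.9 with Met, Bu and Phen, against 246, and 148 and 105 with Rot and AA, against 243. The doses of the biguanides differ (10 mM, 300 µM and 100 µM), and so they are given side by side with no test between them: the changes from control 3 of Met, Bu and Phen were 1.97, 2.07 and 2.17 for SESN2, -1.95, -1.60 and -1.63 for SESN1, and 0.77, 1.40 and 1.19 for PRKAA1.

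With compounds of a class as replicates, Rot or AA with 2DG lowered DDIT4 by -3.61 ± 0.77 (adjusted p = 0.0029 in limma), SESN2 by -1.92 ± 0.46 (adjusted p = 0.00608) and TSC22D3 by -1.72 ± 0.41 (adjusted p = 0.00587), relative to 2DG alone. The second SESN2 probe set fell too (-1.90 ± 0.47, adjusted p = 0.00713 over probe sets), while that of TSC22D3, which is dim, gave -0.60 ± 0.49 (adjusted p = 0.411). PRKAA1 rose on the probe set used, by 0.64 ± 0.21 (adjusted p = 0.0334). Hence 4 of 9 genes were called, 1 higher and 3 lower, against 26.2% of all genes (9.92% higher and 16.2% lower), with a median of -0.53 beside -0.11. All 4 calls were lost without the second 2DG array, which shares control 4 with Rot and AA: DDIT4 then came to -3.66 (adjusted p = 0.0899), SESN2 to -1.80 (0.157), TSC22D3 to -1.51 (0.18) and PRKAA1 to 0.59 (0.321). Within that array set, Rot less 2DG gave -3.47, -1.30 and -1.65 for DDIT4, SESN2 and TSC22D3, and AA less 2DG gave -3.69, -2.66 and -2.0. Without the AA array, SESN2 came to -1.24 (adjusted p = 0.097). Without the block TSC22D3 did not pass (-1.44, adjusted p = 0.105).

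The biguanides with 2DG, relative to 2DG alone, lowered SESN1 by -1.40 ± 0.38 (adjusted p = 0.0144 in limma) and raised PRKAA1 by 1.03 ± 0.28 (adjusted p = 0.0143) on the probe set used. These 2 of 9 calls stand against 21.0% of all genes (7.18% higher and 13.9% lower), with a median of -0.37 beside -0.16. No array with 2DG alone shares control 3 with the biguanides, so the comparison rests on that 1 control array. Without control 3 it cannot be estimated. For SESN1 control 3 was the highest of the HT-1080 controls, so the fall of SESN1 was taken from the highest of them. DDIT4 was lower by -2.20 ± 1.01 but did not pass (adjusted p = 0.133), and passed without the block (-1.92, adjusted p = 0.0205). SESN2, at 0.75 ± 0.61 (-0.33 ± 0.61 on its second probe set), and TSC22D3, at -0.37 ± 0.54, did not pass (adjusted p = 0.414 and 0.672).

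Set directly against each other, the 3 biguanide arrays and the 2 with Rot or AA differed in SESN2 by 2.67 ± 0.68, with mean changes from own control of 2.07 ± 0.10 (SD, n = 3) and -0.55 ± 0.97 (SD, n = 2). In limma that difference did not pass with the array set as a block (adjusted p = 0.303, unadjusted 0.00101), and it did without the block (2.41, adjusted p = 0.00078), so this call depends on how the 2 controls are used. Of 9 genes 0 were called (2 at unadjusted p under 0.05), where 0.0175% of all genes were. The changes from own control did not overlap between the classes for 7 of the 9 genes, against 39.3% of all genes. Biguanides were the higher class for DDIT4, SESN2, PRKAA1 and TSC22D3, and the lower for SESN1, SESN3 and DEPTOR, the last of which are dim in HT-1080. Fitted by probe set, the direction held for SESN2 (2.67 and 1.57) but not for TSC22D3 (1.35 and -1.23) or PRKAA1 (0.39, -0.85 and 0.13), and none of these passed. Over all genes biguanides were the higher class in 17.4% and the lower in 21.9%. An exact two-sided permutation test of 3 arrays against 2 has 10 splits and cannot go below p = 0.1, the value reached for DDIT4, SESN1, SESN2 and TSC22D3. That test ignores that each class has 1 control. On data simulated for this comparison, 13% of genes changed by 1 log2 unit and 49% of those changed by 2 were recovered. PRKAB1 and PRKAB2 overlapped between the classes, with differences of 0.09 ± 0.43 and -0.04 ± 0.53, which do not show that the classes act alike.

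**Figure D3:**
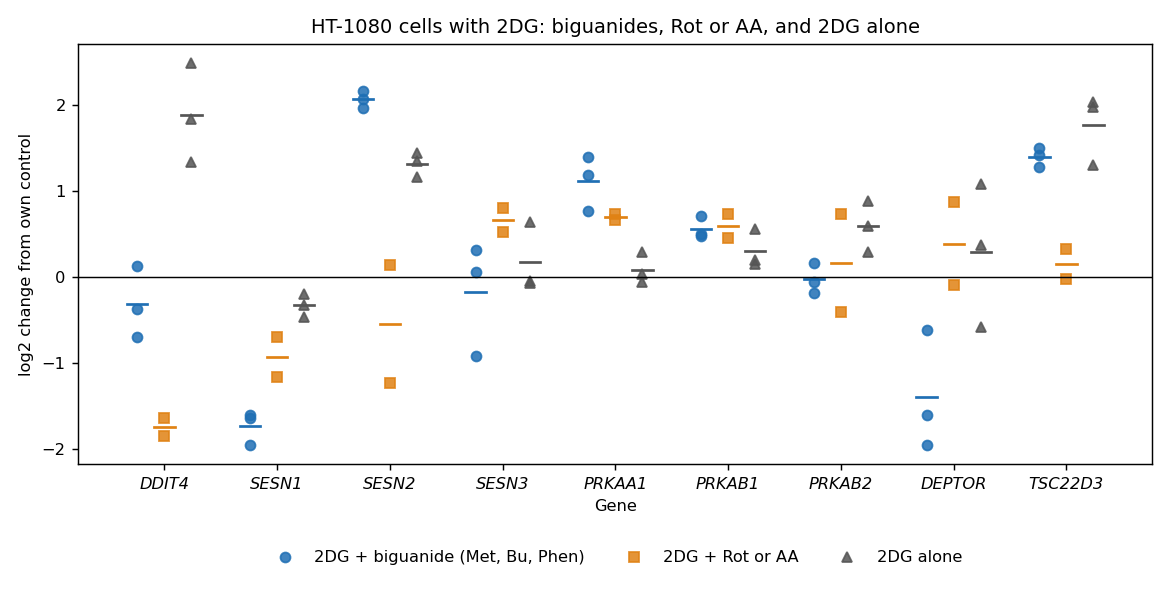
log2 change from own control of 9 genes in HT-1080 cells with 2DG and a biguanide (blue circles, 3 arrays), 2DG and Rot or AA (orange squares, 2 arrays) and 2DG alone (grey triangles, 3 arrays); bars are means. SESN2 lies at 1.97 to 2.17 with biguanides, at -1.23 and 0.14 with AA and Rot, and at 1.16 to 1.44 with 2DG alone.

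Under glucose starvation, Rot and AA brought DDIT4 and SESN2 below their own control. DDIT4 measured 149 with Rot, 89.3 with Rot_S and 61.0 with AA_S, against 2060 and 468 with GS alone. SESN2 measured 123, 144 and 121 on those arrays, against 1803 and 834 with GS alone. All 3 inhibitor arrays lay below all 6 HT-1080 controls for SESN2, while for DDIT4 they lay below control 6 but 2 of them within the range of the other 5. For the Rot_S and AA_S arrays the changes relative to GS alone were -3.80 ± 0.80 for DDIT4 (adjusted p = 0.00193 in limma) and -3.21 ± 0.48 for SESN2 (adjusted p = 0.000166). Both passed without each array in turn, with values of -7.50 to -2.57 for DDIT4 and -5.02 to -2.61 for SESN2. The values of -7.50 and -5.02 come from leaving out the second GS array, the only GS array to share control 6. Both scaffold subunits fell as well. PRKAB1 measured 100 with Rot_S and 48.6 with AA_S, against 172 and 212 with GS alone (-1.44 ± 0.30, adjusted p = 0.00199), though its other probe set gave -0.51 ± 0.23 (adjusted p = 0.109). PRKAB2 measured 119 and 61.6 with Rot_S and AA_S, against 249 and 326 (-1.96 ± 0.38, adjusted p = 0.000972), and 1 of its other probe sets did not pass (-0.99 ± 0.43, adjusted p = 0.0964). PRKAA1 rose on the probe set used, at 204 and 200 against 158 and 113 (0.77 ± 0.22, adjusted p = 0.0142). In all 5 of 9 genes were called, 1 higher and 4 lower, against 26.9% of all genes (12.2% higher and 14.8% lower), with a median of -0.86 beside -0.04. The labels of GS alone name no floating cells, so by the labels cell collection differed along with the compound. Its part was not tested. Relative to the second GS array, Rot without floating cells gave -1.61 for DDIT4, -2.71 for SESN2, -0.84 for PRKAB1 and -1.05 for PRKAB2. PRKAA1 was at 0.96. Rot_S gave -2.32, -2.49, -1.04 and -1.41, and 0.82 for PRKAA1. Without the second GS array the calls of PRKAA1 (0.69, adjusted p = 0.345), PRKAB1 (-1.19, 0.222) and PRKAB2 (-2.27, 0.0629) were lost, and TSC22D3 passed (-2.55, adjusted p = 0.0178), where with that array its change was -0.86 (adjusted p = 0.15).

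A measure of RNA quality and the deposited signal level moved with these groups, and their part in the results was not tested. The ratio of the 3' to the 5' ACTB probe set was 1.507 with GS and Rot, 1.673 with Rot_S and 1.756 with AA_S, against 1.255 and 1.419 with GS alone. It was 1.404 with TM and Rot and 1.486 with TM and AA, against 1.283 with TM alone. Under 2DG it was 1.239 with Rot and 1.368 with AA, against 1.249 to 1.326 with 2DG alone. As deposited, the normalization probe sets of the array design had the same trimmed mean, 4789, on every HT-1080 array with mtDNA. It was 4324 in HT-1080 rho0, 5169 in HT-29 and 4591 in HT-29 rho0 cells. A low trimmed mean of all probe sets is therefore low relative to those probe sets. The deposited trimmed mean of all probe sets was 89.5 to 102.1 on the 2DG and GS arrays of HT-1080 with a compound. With 2DG or GS alone it was 122.7 to 127.6. It was as low without a compound in HT-1080 rho0 cells, at 91.3 with 2DG and 90.2 with GS (own controls 111.5 and 117.5). HT-29 rho0 cells with GS had 96.3 (own control 109.5), and HT-29 with GS and VST had 89.6. With TM and Rot or AA it was 119.4 and 117.8. The single-array changes of the low arrays are relative to such a shift too. With the deposited scaling the median change of all genes was -0.50 for biguanides, -0.48 for Rot or AA with 2DG and -0.40 with GS, against -0.16, -0.11 and -0.04 after rescaling, so every change in these comparisons is relative to that shift. The split of all called genes moved with it: 823 rose and 1588 fell with biguanides after rescaling, and 255 and 2786 as deposited. For Rot or AA with 2DG 1137 rose and 1860 fell, and 246 and 3906 as deposited, and for Rot_S or AA_S with GS 1392 rose and 1694 fell, and 642 and 3444 as deposited. With it, PRKAA1 was no longer called with 2DG and a biguanide (0.68, adjusted p = 0.119), with 2DG and Rot or AA (0.25, 0.436), or with GS and Rot or AA (0.40, 0.228), while the falls of DDIT4 and SESN2 with Rot or AA stayed called under 2DG and under GS.

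Tunicamycin was given alone and with Rot or AA. With TM alone, 0 of 9 genes changed by 1 log2 unit or more from control 6 (no replicate, no test), where 4.2% of all genes did. DDIT4 measured 484 and SESN2 604 with TM, against 703 and 524 on control 6. Both lay above the other 5 HT-1080 controls (at most 223 and 267), by over 1 log2 unit, so the count of 0 rests on control 6. TSC22D3, at 89.9 with TM, also lay below control 6 but above the other 5. The choice of control thus decides the direction for DDIT4 and TSC22D3. With TM and Rot or AA DDIT4 measured 767 and 1198, against 484 with TM alone (0.98 ± 0.88, adjusted p = 0.688 in limma). TSC22D3 measured 223 with TM and Rot and 417 with TM and AA, against 89.9 with TM alone (1.70 ± 0.47, adjusted p = 0.108). SESN2 measured 458 and 377, against 604 (-0.53 ± 0.53, adjusted p = 0.724). PRKAA1 rose on the probe set used, at 179 and 162 against 73.8 (1.15 ± 0.24, adjusted p = 0.0353), the 1 call among 9 genes, where 0.742% of all genes were called (0.201% higher and 0.541% lower). In genes that is 23 higher and 62 lower, and 8 and 54 with the deposited scaling. That call was lost without either the Rot or the AA array (1.07 and 1.22, adjusted p = 0.0802 and 0.12). The single TM array was assumed to vary like the replicated groups.

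The effect of Rot or AA differed between 2DG and TM for DDIT4, by -4.58 ± 1.17 (adjusted p = 0.0471 in limma), and for TSC22D3, by -3.42 ± 0.63 (adjusted p = 0.0154), whose second probe set gave -2.53 ± 0.74 (adjusted p = 0.0816). These were 2 of 9 genes, both lower, against 2.35% of all genes (0.855% higher and 1.49% lower), with a median of -0.62 beside -0.10. Of all genes 98 were higher and 171 lower, and 37 and 634 with the deposited scaling. SESN2 differed by -1.39 ± 0.70 and did not pass (adjusted p = 0.289). The 2 arrays with Rot or AA lay on opposite sides of stress alone under the 2 stresses: below it with 2DG (-3.47 and -3.69 for DDIT4 within the array set) and above it with TM (0.66 and 1.30). Without the block neither gene passed (-3.77, adjusted p = 0.109 for DDIT4 and -3.15, adjusted p = 0.137 for TSC22D3). With single arrays left out in turn, the DDIT4 value ran from -4.90 to -4.26 and passed only without the 2DG and Rot array or without control 6. Both calls were lost without the second 2DG array (DDIT4 -4.63, adjusted p = 0.28; TSC22D3 -3.22, 0.175), the TM and AA array (-4.26, 0.141; -2.98, 0.0708) or control 4 (-4.56, 0.105; -3.53, 0.0507).

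**Figure D4:**
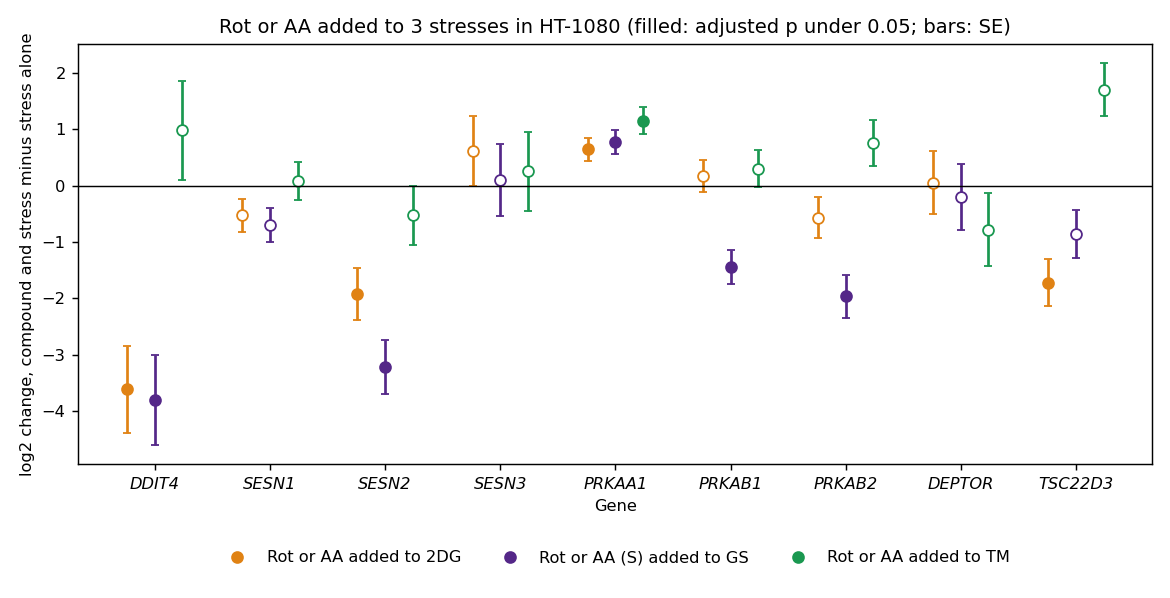
Change of 9 genes when Rot or AA was added to 2DG (orange), GS (purple, Rot_S and AA_S arrays) or TM (green) in HT-1080 cells, relative to the same stress alone; bars are SE, and filled points have an adjusted p under 0.05 in limma. DDIT4 lies at -3.61 under 2DG, at -3.80 under GS and at 0.98 under TM. PRKAA1, on the probe set used, lies above 0 under all 3.

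Versipelostatin, a macrocyclic inhibitor of the unfolded protein response under glucose shortage, was measured on 1 array in each of 3 settings, with no test. DDIT4 measured 72.9 with 2DG and VST, against 150 on control 3. With GS and VST it measured 697, against 2060 with GS alone and 95.9 on control 1, which both share. In HT-29 it measured 412 with GS and VST, against 2601 with GS alone and 77.6 on the shared control. SESN2 followed the same order: 993 against 1803 and 210 in HT-1080, and 472 against 1318 and 80.2 in HT-29. With VST both genes therefore lay between GS alone and the control in each line. PRKAA1 lay higher on the probe set used, at 304 against 158 with GS alone in HT-1080 and 659 against 299 in HT-29. Changes of at least 1 log2 unit from own control were seen in 1 of 9 genes with 2DG and VST (DEPTOR, 16.3% of all genes), in 5 with GS and VST (16.7%), and in 4 with GS and VST in HT-29 (25.7%). With GS and Rot, also a single array, there were 3 (11.7%). DEPTOR is counted in each of these groups, and on all HT-1080 arrays it stayed under the filter, so its changes there are between dim signals.

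Stressed cells without mtDNA were measured on 1 array per stress, with no test. In HT-1080 rho0 cells SESN2 measured 722 with 2DG against 443, 678 with GS against 458, and 759 with TM against 458. DDIT4 measured 48.9 with 2DG against 70.8, 541 with GS against 113, and 187 with TM against 113. DDIT4 was thus lower than its control with 2DG, as on the Rot and AA arrays, but higher with GS. Changes of at least 1 log2 unit were seen in 1 of 9 genes with 2DG (PRKAA1, 15.2% of all genes), 3 with GS (DDIT4, PRKAA1 and DEPTOR, 10.8%) and 1 with TM (DEPTOR, 5.21%). DEPTOR stayed under the filter on every HT-1080 rho0 array, so its changes there are between dim signals. In HT-29 rho0 cells DDIT4 measured 2782 with GS against 2734, and SESN2 243 against 137. SESN3 was the 1 gene of 9 past 1 log2 unit (8.69% of all genes), at 1.37 against 46.6. That control is among the 2 arrays through which SESN3 passed the filter, so a fall from it was favoured by the selection. The control level of DDIT4 there was above the 3 HT-29 controls (77.6 to 530) and close to the starved HT-29 arrays. Among unstressed arrays, then, this 1 culture held the most DDIT4.

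Between control cultures, loss of mtDNA went with higher SESN1, PRKAB1 and PRKAB2 in HT-1080. SESN1 measured 352 and 356 in rho0 controls, against a lowest of 185, a median of 218 and a highest of 246 in the 6 HT-1080 controls (0.71 ± 0.17, adjusted p = 0.0132 in limma). PRKAB1 measured 291 and 176 in rho0 controls, against 116, 123 and 159 (0.78 ± 0.24, adjusted p = 0.0416), and PRKAB2 180 and 202, against 68.4, 102 and 123 (0.93 ± 0.21, adjusted p = 0.0118). The groups did not overlap for any of the 3. These 3 of 9 calls stand against 13.1% of all genes (6.15% higher and 6.95% lower), with a median of 0.24 beside 0.02, and were lost without either rho0 control. Of all genes 704 rose and 796 fell, and 362 and 1635 with the deposited scaling. PRKAB1 was also lost without any 1 of HT-1080 controls 1, 2, 4, 5 and 6 (0.75 to 0.80, adjusted p = 0.0599 to 0.0715), with no filter (0.78, 0.0679), with the deposited scaling (0.61, 0.0973) and with no intensity trend (0.78, 0.0563), and its other probe set did not pass (0.81 ± 0.26, 0.0574). SESN2 measured 443 and 458 in rho0 controls, below control 6 but above the other 5, and did not pass (0.80 ± 0.29, adjusted p = 0.0846). It passed without control 6 (1.00, adjusted p = 0.0032), and its other probe set passed with all controls (1.12 ± 0.34, adjusted p = 0.0488 in limma over probe sets).

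HT-29 controls, compared with HT-1080 controls, had less SESN1 and SESN2 and more PRKAA1. SESN1 measured 39.4, 46.4 and 46.2 in HT-29 (-2.15 ± 0.14, adjusted p = 9.43e-09 in limma). SESN2 measured 80.2, 81.6 and 101 in HT-29, against 190, 225 and 524 (lowest, median and highest) in HT-1080 (-1.50 ± 0.25, adjusted p = 0.000128). PRKAA1 measured 301, 293 and 292 in HT-29, against 113, 130 and 145 in HT-1080 (1.16 ± 0.13, adjusted p = 1.87e-06), and was higher on all 3 probe sets (1.16, 1.33 and 0.85). None of these 3 overlapped. With SESN3, which passed the filter through HT-29 arrays, 4 of 9 genes were called, 2 higher and 2 lower, where 59.8% of all genes were (27.4% higher and 32.4% lower), and the median was -0.36 beside -0.06.

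Probe sets of 1 gene disagreed for the AMPK subunits when each was fitted on its own. The rises of PRKAA1 with compounds rest on 209799_at. With 2DG and a biguanide that probe set gave 1.03 ± 0.28, while 225984_at gave -0.71 ± 0.43 and 225985_at -0.33 ± 0.52 (adjusted p = 0.265 and 0.709 in limma). With GS and Rot_S or AA_S it gave 0.77, while they gave -0.38 and -0.55. With Rot or AA it gave 0.64 under 2DG, while they gave 0.14 and -0.46, and 1.15 under TM, while they gave 0.59 and 0.48, none of which passed. Averaged over the probe sets, PRKAA1 showed no call in any comparison with a compound. PRKAB2 rose with 2DG on 214474_at (1.40 ± 0.21, adjusted p = 0.00326), but 225278_at gave 0.59 ± 0.18 (adjusted p = 0.0652) and 1558027_s_at 0.67 ± 0.20 (0.0563). On single arrays 214474_at was higher than its control by 2.92 with Bu and 2.95 with Phen, where 225278_at gave 0.17 and -0.05. The second SESN2 probe set was not called with 2DG (1.18 ± 0.39, adjusted p = 0.0827), and on the rho0 array with 2DG the 2 gave 0.70 and -1.16. TSC22D3 also differed with biguanides: its second probe set gave -0.59 to -0.04 on the 3 arrays, where 208763_s_at gave 1.28 to 1.5. Which transcripts each probe set detects is not given in the sources used here.

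**Figure D5:**
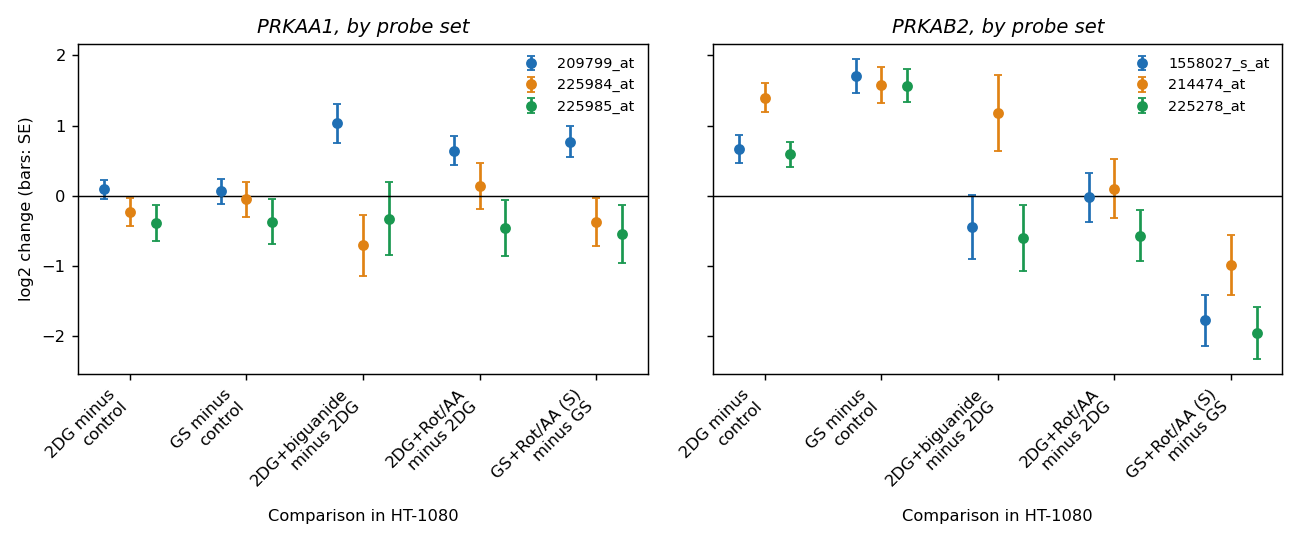
Change of each PRKAA1 and PRKAB2 probe set past the filter (colours) in 5 comparisons in HT-1080 cells; bars are SE. The 3 PRKAB2 probe sets lie at 1.57 to 1.71 with GS, while those of PRKAA1 lie at 1.03, -0.71 and -0.33 for biguanides added to 2DG.

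From a list of 55 further AMPK, TSC, Rag, GATOR and mTORC1 genes, 48 were measured. With 2DG 2 rose and 2 fell (4.9% and 3.37% of all genes did), with GS in HT-1080 2 rose and 1 fell (4.36% and 5.1%), and with GS in HT-29 7 rose and 6 fell (11.6% and 15.5%). No test set the list against all genes. RRAGC, a Rag GTPase that recruits mTORC1 to lysosomes, rose with each: by 0.87 ± 0.21 with 2DG (adjusted p = 0.0272 in limma), 1.14 ± 0.26 with GS in HT-1080 (0.0205) and 1.41 ± 0.21 with GS in HT-29 (0.00145). SLC38A9, a lysosomal arginine sensor, rose with 2DG (0.82 ± 0.18) and with GS in HT-1080 (0.84 ± 0.21). The nucleotide-binding AMPK subunit PRKAG2 fell with 2DG (-0.70 ± 0.17, adjusted p = 0.0274). Relative to 2DG alone, 2 rose and 10 fell with biguanides (7.18% and 13.9% of all genes), among those that fell STK11, the kinase LKB1 that activates AMPK (-1.19 ± 0.33, adjusted p = 0.0161), and SLC38A9 (-1.50 ± 0.32). With Rot or AA 5 rose and 14 fell (9.92% and 16.2% of all genes), among those that fell the autophagy kinase ULK1 (-2.15 ± 0.52, adjusted p = 0.00577), TBC1D7 of the TSC complex (-1.50 ± 0.39) and RRAGC (-1.10 ± 0.29). FLCN and FNIP2, partners in Rag regulation, fell with both classes. Relative to GS alone, 2 rose and 11 fell with Rot_S or AA_S (12.2% and 14.8% of all genes), among those that fell RRAGC (-1.47 ± 0.30) and the S6 kinase RPS6KB1 (-1.28 ± 0.21, adjusted p = 0.000346). The medians of the list were -0.30, -0.22 and -0.15 in those 3 comparisons, beside -0.16, -0.11 and -0.04 over all genes. Calls of list genes were not followed by probe set, by scaling or with arrays left out. Without the second 2DG array, calls over all genes went from 947 to 84 for 2DG. For Rot or AA with 2DG they went from 2997 to 338.

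Across the 26 treated arrays, DDIT4 and SESN2 moved together (Pearson r = 0.85), DDIT4 with TSC22D3 less so (0.64), and SESN1 hardly with SESN2 (0.01). These are descriptions, since arrays share controls and compounds. The 3 genes whose changes were most like those of DDIT4 were IFRD1, CTH and CHAC1 (r = 0.89, 0.88 and 0.88), and for SESN2 they were ATF4, FBXO32 and DDIT3 (0.88, 0.87 and 0.85). For TSC22D3 they were E2F7, ARHGAP42 and HERPUD1 (0.79, 0.76 and 0.74), and for PRKAB2 they were GREB1, ATP6V0A2 and TREM1 (0.82, 0.78 and 0.78). SESN1 was most like CTBP1-DT, DCAF11 and TIGD2 (0.8, 0.79 and 0.78), and PRKAB1 most like ZCCHC7, COX3 and PYROXD1 (0.8, 0.75 and 0.73). For SESN3 and DEPTOR, dim on most arrays, they were OSTF1, DNAJC18 and TMEM158 (0.76, 0.69 and 0.68) and SKAP2, PDCD6P1 and FMNL1 (0.76, 0.74 and 0.72).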

How the data were processed

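The authors measured total RNA from 38 cultures, each on its own Affymetrix U133 Plus 2.0 array. The deposited values are MAS5 intensity values on a linear scale, per the submitters' processing notes and the file's values. The table holds 54675 probe sets. Those with a missing value (232) were left out.

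Each array was rescaled to a common 2% trimmed mean of 114, and log2 was taken after adding 5% of it (5.69). Probe sets with 1 gene symbol and at least 2 arrays at 40% of the trimmed mean (45.5) were kept, 21480 in all, and the probe set with the highest mean stood for its gene, giving 11456 genes. All of them were tested together in limma 3.58.1 (R 4.3.3), its prior variance following intensity. A gene was called at a Benjamini-Hochberg adjusted p under 0.05. SE is the limma standard error.

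A treated array's own control is the 1 its sample description names. Arrays with the same own control, and that control, formed a block with fixed effects. The numbers in the labels do not pair samples otherwise. Met, Bu and Phen shared a coefficient, as did Rot and AA under each stress, so the spread between compounds counts as error. The 12 controls were compared without a block. The labels do not say whether cultures of a group were grown independently, so what the p-values reflect is array-to-array spread, which may be technical. The number of arrays limits the precision.

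All 10 members are named whatever their values, and up to 5 called genes per comparison of the pathway list with the largest change were open to naming. The members and lists were chosen with earlier results of these data known. Likeness is the highest Pearson correlation of changes over the 26 treated arrays, for members whose changes range over more than 2 log2 units. The fits were tested on simulated data of 11456 genes. Alternatives were other offsets, filters, scalings and probe set choices, no trend, no block, arrays of 1 line and leaving out each array. How much 2DG or TM was used is not given in the sources used here.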

Additional observations from a re-analysis of the deposited data

Results flagged for a closer look

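SESN2 on HT-1080 control 6 had a signal of 524, far from the other 5 controls. The search took each of 9 genes in the 6 HT-1080 controls. On the log2 scale, the gap of SESN2 to the nearest control was 0.67 of the range of the 6, and DDIT4 and TSC22D3, also highest on control 6, did not pass (0.55 and 0.51). On the linear scale, tried after seeing the data, all 3 passed (SESN2 0.77, DDIT4 0.78 and TSC22D3 0.65). The limit of the search (0.625) is set so that chance passes about 1 in 20 such groups of values for each gene searched. The effect of Rot or AA differed between 2DG and TM, by a test of the difference itself, for DDIT4 (-4.58, adjusted p = 0.0471 in limma) and for TSC22D3 (-3.42, adjusted p = 0.0154). Neither passed without the own control as a block, and TM alone had 1 array.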

How the results depend on the processing

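Of the 9 measured genes, the number called depended on the processing as follows. For 2DG it was 2, and 1 with an offset of 1%, with no filter or with no intensity trend, 4 with arrays of the same line only, and 0 to 1 without each array in turn. For GS in HT-1080 it was 3, 1 with no trend, and 0 to 2 without each array. For GS in HT-29 it was 6, 3 with no replicate block (also without control 6), and 4 to 6 without each array. For the GS difference between lines it was 0, 1 with an offset of 20% or no replicate block (also without control 6), and 0 to 2 without each array, with PRKAB2 and SESN2 passing without the third HT-29 GS array or its control. For biguanides relative to 2DG it was 2, and 1 with the deposited scaling, the mean of all probe sets or quantile normalization. For Rot or AA with 2DG it was 4, and 0 to 4 without each array. For biguanides against Rot or AA it was 0, and 1 (SESN2) with no replicate block, also without control 6. For Rot_S or AA_S with GS it was 5, and 3 to 5 without each array. For Rot or AA with TM it was 1, and 0 with no filter, the deposited scaling or the mean of all probe sets, and 0 to 2 without each array. For the difference between 2DG and TM it was 2, 1 with an offset of 1%, no filter, the mean of all probe sets, quantile normalization or no trend, 0 with no replicate block (also without control 6), and 0 to 3 without each array. For the rho0 controls it was 3, and 0 to 3 without each array. PRKAB1 was there lost with no filter, the deposited scaling or no trend (adjusted p = 0.0679, 0.0973 and 0.0563). Single-array values of at least 1 log2 unit numbered 19 of 81, and 10 with an offset of 20%. With the mean of all probe sets PRKAA1 came to -0.0 for biguanides relative to 2DG and to -0.05 for Rot_S or AA_S relative to GS, and with no filter SESN3 came to -0.1 between HT-29 and HT-1080 controls, since another probe set was used. The other causes were not tested. The alternative that also leaves out control 6 was chosen after seeing the data.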

Other observations

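Rot with GS was measured with and without floating cells, on 1 array each against the same control. With floating cells DDIT4 was lower by -0.70 log2 units and TSC22D3 by -0.70, SESN2 differed by 0.21 and PRKAA1 by -0.15. PRKAB1 differed by -0.2 and PRKAB2 by -0.36. The labels do not say whether both arrays came from 1 culture.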
